A study of Homo sapiens with 12 samples.

Results

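RYR2, ITPR2, ATP2A2, PLN, SLN, CASQ2, TRDN, JPH2, ASPH and HRC encode the channels, pump, pump inhibitors and store proteins through which a heart muscle cell releases and takes up the calcium of its sarcoplasmic reticulum. They were chosen by name and not by their measured values, although earlier results of these data were known. All 10 were found among the 60583 gene names of the deposited count table. RNA was sequenced from cardiomyocytes made from RUES2, an established human embryonic stem cell line with a wild-type genotype, which had reached day 50 and then spent 3 days on an electrospun scaffold. The scaffold was either 8% PVA (polyvinyl alcohol), the control that does not conduct, or 9.75% PEDOT:PSS/PVA, which holds a conducting polymer and is called PEDOT here. All cells descend from 1 line and were kept in RPMI medium with B27 and insulin. Each scaffold had 3 biological replicates, numbered 1 to 3, with 2 technical libraries each, which gave 12 libraries of ribodepleted total RNA. The 2 technical libraries of a replicate were added together, so the comparisons rest on 6 sums, 3 per scaffold. No label says that the replicates came from separate cultures, so the p-values measure the spread between these samples only, which may be technical.

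At each heartbeat, calcium that enters through the cell surface opens ryanodine receptors, which let a larger pulse of calcium out of the sarcoplasmic reticulum to the contractile filaments. The SERCA pump then returns calcium to the store, and the small membrane proteins phospholamban and sarcolipin restrain the pump. Calsequestrin and the histidine-rich calcium binding protein hold calcium inside the store, triadin and junctin tether calsequestrin to the release channel, and junctophilin keeps the store close to the surface membrane.

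Library totals ranged from 19.1 to 30.95 M counts, and levels are given as CPM, counts per M counts of the library, after scaling by edgeR's trimmed mean method. The labelled cell type was checked against TNNT2, MYH6, ACTN2, TTN, MYBPC3 and TNNC1, which mark cardiomyocytes. All 6 had counts in every sum, and together they took 5.21 to 8.03% of the CPM. Summed fibroblast markers (DCN, LUM, COL1A1, COL3A1, PDGFRA and POSTN) reached 620 to 5174 CPM, and summed endothelial markers (PECAM1, CDH5, VWF, KDR and TEK) 12.8 to 22.1 CPM. The 4 endoderm markers read summed to 2.65 to 12.5 CPM.

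Phospholamban was the most abundant of the 10 transcripts per length, followed by the SERCA2 pump and the ryanodine receptor. PLN averaged 1292 CPM per kb of merged exon over the 6 sums (range 1142 to 1447), ATP2A2 337.7 (257 to 393) and RYR2 108.6 (86.8 to 127). Between the mean levels of PLN and ATP2A2 lay a factor of 3.83, and between ATP2A2 and RYR2 one of 3.11. In all 6 sums PLN stood above ATP2A2 and ATP2A2 above RYR2, and their ranges did not overlap. JPH2, HRC and TRDN came next, at mean levels of 49.1, 47.6 and 40.8 CPM per kb, and neither JPH2 and HRC nor HRC and TRDN could be told apart beyond their spread. ASPH followed at 19.5 CPM per kb. SLN, ITPR2 and CASQ2 were lowest, at mean levels of 4.32, 2.78 and 1.29 CPM per kb, and the ranges of SLN and ITPR2, and of ITPR2 and CASQ2, overlapped. Lengths are those of all annotated exons merged, so a gene with long exons that the cells do not use is set too low on this scale.

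**Figure D1:**
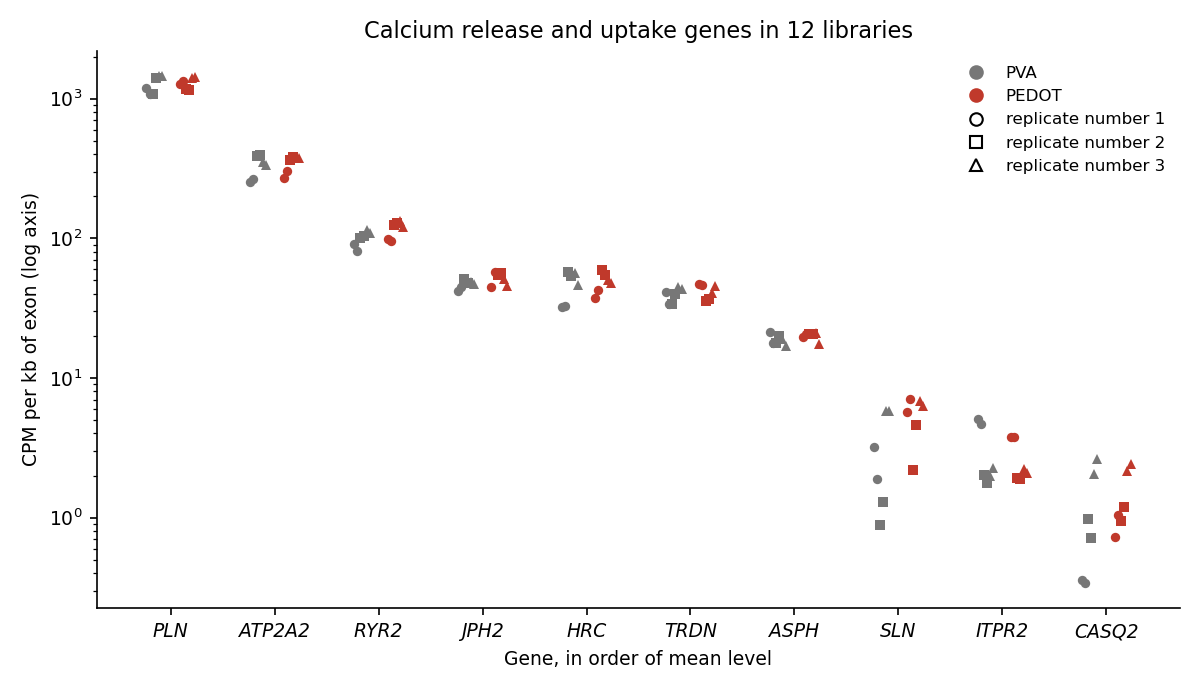
Level of each of the 10 genes in the 12 libraries, as CPM per kb of merged exon on a log axis, with colour for the scaffold and marker shape for the replicate number. PLN, ATP2A2 and RYR2 stand apart at the top, and SLN and CASQ2 spread most between libraries.

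Together the 10 genes took 1.01 to 1.27% of all counts in a sum, and ATP2A2, PLN and RYR2 made up 87.8 to 90.3% of that. On PVA the share of all counts was 1.01, 1.22 and 1.19% in replicates 1, 2 and 3, and on PEDOT it was 1.09, 1.22 and 1.27%. Replicate 1 had the lowest share on both scaffolds. At the other end, SLN had 16 to 190 counts in a library and CASQ2 19 to 189, so their counting error was the widest of the 10. The 16 SLN counts of PVA replicate 2, technical library 2, stand for 0.806 CPM with an exact 95% Poisson interval of 0.461 to 1.31, and the 19 CASQ2 counts of PVA replicate 1, technical library 3, for 0.949 CPM (0.571 to 1.48). These intervals cover counting error only.

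The promoters of RYR2, ATP2A2 and HRC are printed because these 3 genes were low together in replicate 1 of both scaffolds, and that of PLN because it was the most abundant of the 10 and did not share this pattern. Each is the 250 bases before the transcription start of RefSeq (GRCh38.p14), read 5′ to 3′ on the gene's strand, and capitals mark matches to the motifs searched. The windows are RYR2 at chr1:237041934-237042183 on the plus strand, ATP2A2 at chr12:110280366-110280615 on the plus strand, HRC at chr19:49155397-49155646 on the minus strand and PLN at chr6:118548046-118548295 on the plus strand.
RYR2: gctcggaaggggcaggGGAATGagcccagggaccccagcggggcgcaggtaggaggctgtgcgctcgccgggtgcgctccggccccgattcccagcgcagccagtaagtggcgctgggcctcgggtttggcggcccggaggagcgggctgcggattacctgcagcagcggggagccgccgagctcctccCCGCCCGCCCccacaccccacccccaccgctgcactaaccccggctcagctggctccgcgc
ATP2A2: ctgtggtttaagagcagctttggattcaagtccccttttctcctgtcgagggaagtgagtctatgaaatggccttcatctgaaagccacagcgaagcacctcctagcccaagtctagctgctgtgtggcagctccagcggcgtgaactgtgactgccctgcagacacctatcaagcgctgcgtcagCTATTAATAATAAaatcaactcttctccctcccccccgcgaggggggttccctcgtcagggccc
HRC: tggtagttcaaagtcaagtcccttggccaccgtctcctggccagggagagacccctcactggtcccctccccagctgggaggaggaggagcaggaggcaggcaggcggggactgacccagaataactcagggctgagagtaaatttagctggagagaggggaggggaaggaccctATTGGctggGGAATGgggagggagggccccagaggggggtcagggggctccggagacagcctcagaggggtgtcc
PLN: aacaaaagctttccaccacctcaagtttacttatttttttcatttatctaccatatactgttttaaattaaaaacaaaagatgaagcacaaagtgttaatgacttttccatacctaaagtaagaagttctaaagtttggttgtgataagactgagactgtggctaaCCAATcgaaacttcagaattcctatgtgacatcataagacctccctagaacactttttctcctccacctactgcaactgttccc

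These 4 windows differed widely in base composition, with 75.2% G and C for RYR2, 64.0% for HRC, 54.8% for ATP2A2 and 34.8% for PLN. Both strands were searched for the TATA box, spelled TATAAA, and for the GC box, spelled GGGCGG. The search also covered the CCAAT box, which is spelled as its name says, and the M-CAT element, a site of TEAD factors spelled CATTCC. The MEF2 site and the CArG box of serum response factor were searched by their usual consensus. RYR2 held 2 GC boxes, starting 61 and 57 bases before the start and overlapping, and an M-CAT at 234. ATP2A2 held 2 overlapping MEF2 sites at 64 and 61 bases, HRC a CCAAT box at 75 and an M-CAT at 66, and PLN a CCAAT box at 84. No motif was shared by RYR2, ATP2A2 and HRC. Among these 4 windows the M-CAT was shared by RYR2 and HRC alone, and the CCAAT box by HRC and PLN alone. Over the first 250 bases of 35116 RefSeq promoters, 10.7% held a TATA box, 42.6% a GC box, 32.01% a CCAAT box, 11.9% an M-CAT, 2.80% a MEF2 site and 1.16% a CArG box. The RefSeq table has a promoter for 7 of the 10 genes, and a second ATP2A2 window with 80.4% G and C held 4 GC boxes and 1 CCAAT box. The printed ATP2A2 window is the first of its entries. It ends at 110280615, upstream of the gene start at 110280756 in the annotation used for counting, whereas the other printed windows adjoin theirs. A match describes these letters only.

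The first question the design sets is whether the conducting scaffold changed these genes, and no difference passed the test. In edgeR's quasi-likelihood test of PEDOT against PVA, 0 of the 10 genes had an adjusted p under 0.05, where 0% of the 21298 genes tested did, and 0 of the 10 had an unadjusted p under 0.05 against 0.892% of all genes. DESeq2 without the block called 0 of the 10 as well. Replicates with the same number resembled each other across the scaffolds, and with the replicate number as a block 0 of the 10 passed again, beside 0.268% of all genes (57 genes). RYR2, SLN and CASQ2 had an unadjusted p under 0.05 in that fit, 3 of 10 beside 8.32% of all genes. The median log2 fold change over the 10 genes was 0.07 (0.08 with the block), and 9 of 10 estimates lay above 0, beside a median of -0.01 and 48.1% of estimates above 0 over all genes. No gene of the 10 had its 3 PEDOT sums all above or all below its 3 PVA sums, which 4.54% of all genes did. RYR2, SLN, JPH2 and ASPH were higher on PEDOT in all 3 pairs of equal number, 4 of 10 beside 13.8% of all genes.

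The summed cardiomyocyte markers were also higher on PEDOT within pairs, mostly through TTN, which encodes titin. The 6 markers summed to 52114, 68315 and 71502 CPM in replicates 1, 2 and 3 on PVA and to 59821, 80304 and 74174 CPM on PEDOT, higher on PEDOT in 3 of 3 pairs, although none of the 6 genes passed the scaffold test. The mean of TTN was 41614 CPM for PVA against 48959 CPM for PEDOT, while the means of MYH6 (18602 and 18357 CPM) and TNNC1 (546 and 524 CPM) were slightly lower on PEDOT. In bulk RNA, fewer cells of a type and less RNA per cell cannot be told apart. Set against that sum, in which TTN weighs most, the mean log2 difference of PEDOT against PVA was 0.05 for RYR2, -0.10 for ATP2A2, -0.15 for PLN, -0.02 for JPH2 and -0.09 for ASPH, and it was 0.86 for SLN and 0.41 for CASQ2. Of the 10 genes, only SLN, CASQ2 and RYR2 then lay above 0.

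**Figure D2:**
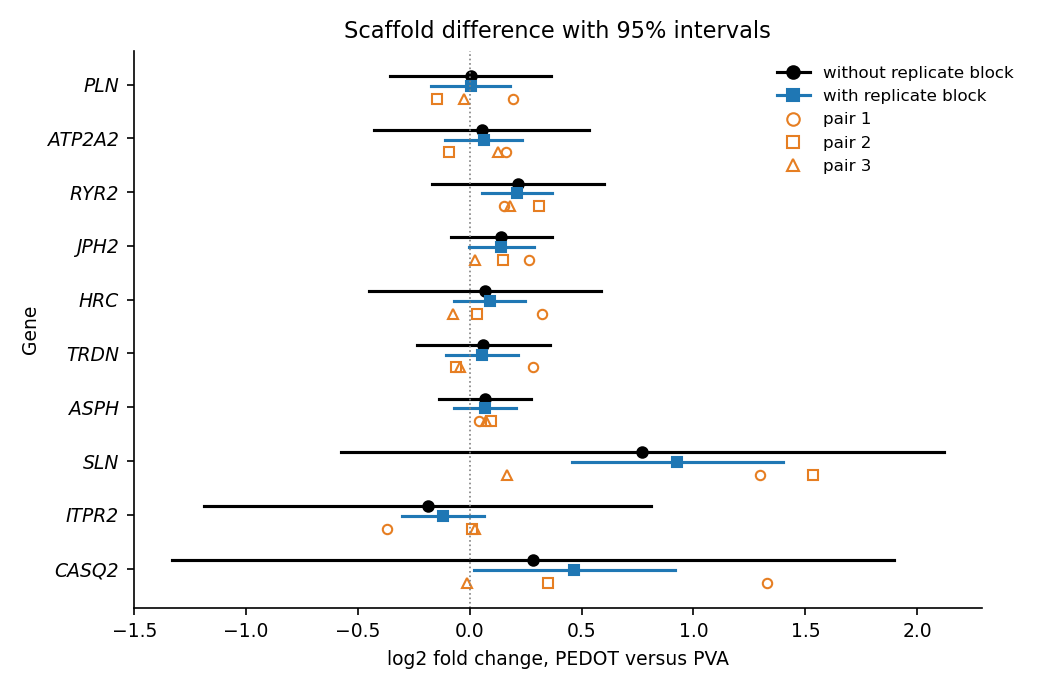
Log2 fold change of PEDOT against PVA for each gene, with 95% intervals without (circles) and with (squares) the replicate block, and the difference within each pair of equal replicate number (open markers). Every interval without the block spans 0, and those of RYR2, SLN and CASQ2 clear 0 with the block before adjustment over all genes.

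RYR2 (chr1:237042184-237833988 on hg38, plus strand, 111 merged exons) encodes the cardiac ryanodine receptor, the channel through which calcium leaves the store. On PVA its level was 1549, 1825 and 2004 CPM in replicates 1, 2 and 3, and on PEDOT it was 1721, 2261 and 2272 CPM. PEDOT was the higher of each pair, while the lowest PEDOT sum lay below the highest of PVA. The log2 fold change was 0.22 ± 0.16 (SE, 95% interval -0.17 to 0.60) and, with the replicate block, 0.21 ± 0.07 (unadjusted p = 0.0121, edgeR adjusted p = 0.413). The block fit over every gene with a count called RYR2 (edgeR adjusted p = 0.047), and the other block fits did not. RYR1 and RYR3, the receptors best known from skeletal muscle and from brain, took 0.149 to 0.407% and 0.120 to 0.270% of the ryanodine receptor transcripts per length, so RYR2 made up 99.4 to 99.7% in each sum.

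ITPR2 (chr12:26335352-26833194, minus strand, 60 merged exons) encodes an inositol trisphosphate receptor, a release channel that hormone signals open. PVA replicates 1, 2 and 3 held 67.5, 26.2 and 29.5 CPM, and PEDOT replicates 52.3, 26.4 and 30.00 CPM. The scaffolds overlapped, and replicate 1 was the highest on each. The log2 fold change was -0.19 ± 0.42 (SE), and -0.12 ± 0.09 with the block. Per length, ITPR2 made up 64.8 to 79.0% of the inositol trisphosphate receptor transcripts, ITPR1 15.5 to 26.8% and ITPR3 5.48 to 9.80%. Merged exons of ITPR2 share 209 bases with other genes on the same strand, and reads there were not counted for either gene.

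ATP2A2 (chr12:110280756-110351093, plus strand, 22 merged exons) encodes SERCA2, the pump that refills the store. PVA replicates 1, 2 and 3 held 3529, 5400.5 and 4733 CPM, and PEDOT replicates 3954, 5070.0 and 5162 CPM. Replicate 1 was lowest on both scaffolds and the scaffolds overlapped. Its log2 fold change was 0.05 ± 0.20 (SE, 95% interval -0.43 to 0.53), and the block narrowed it to 0.06 ± 0.08 (-0.11 to 0.24). ATP2A2 made up 99.6 to 99.9% of the SERCA transcripts per length, with ATP2A1, the fast skeletal pump, and ATP2A3 sharing the rest.

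PLN (chr6:118548296-118561716, plus strand, 2 merged exons) encodes phospholamban, which slows the pump until it is phosphorylated. It reached 3412, 3826 and 4324 CPM in replicates 1, 2 and 3 on PVA and 3901, 3458 and 4250 CPM on PEDOT. Both scaffolds covered much the same range. The log2 fold change was 0.00 ± 0.15 (SE, 95% interval -0.36 to 0.36), and with the block 0.00 ± 0.08 (-0.17 to 0.18). Within pairs the log2 difference was 0.19, -0.15 and -0.03, so PLN had no common direction.

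SLN (chr11:107707378-107719693, minus strand, 3 merged exons) encodes sarcolipin, a pump inhibitor best known from atrial and skeletal muscle, and it had the largest estimate of the 10. The level was 2.36, 1.02 and 5.27 CPM in replicates 1, 2 and 3 on PVA and 5.85, 3.04 and 5.92 CPM on PEDOT. Each PEDOT sum exceeded the PVA sum of its number, but PEDOT replicate 2 lay below PVA replicate 3. The log2 fold change was 0.77 ± 0.57 (SE, 95% interval -0.58 to 2.12) without the block and 0.93 ± 0.22 with it, where edgeR gave an unadjusted p of 0.000874 and an adjusted p of 0.133. Within pairs the log2 difference was 1.30, 1.53 and 0.17, and the block fit without pair 3 called SLN, at 1.41 with an edgeR adjusted p of 7.37e-06. Without pair 1 it was 0.71 (edgeR adjusted p = 0.174) and without pair 2 it was 0.70 (0.569), neither a call. In the fit without the block, the estimate was 0.37 without PVA replicate 2 and 1.54 without PVA replicate 3. DESeq2 with the block (adjusted p = 0.0411) and the edgeR block fit over every gene with a count (adjusted p = 3.16e-06) called it too. Over the settings tried its adjusted p ran from 3.16e-06 to 1.00.

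The technical libraries behind these sums limit what SLN can show. In PEDOT replicate 2 the 2 libraries held 1.97 and 4.15 CPM, a log2 difference of 1.04, the widest between any technical pair for the 10 genes. For comparison, the median absolute difference between technical libraries over all genes was 0.17. PVA replicate 1 held 2.88 and 1.70 CPM, and PVA replicate 2 held 0.806 and 1.18 CPM, so all 4 of these libraries lay below 5 of the 6 PEDOT libraries.

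Ratios between genes do not depend on library scaling, and in each of 5 ratios the 2 scaffolds overlapped. The pump inhibitor PLN stood to the pump ATP2A2 at 3.97 ± 0.63 on PVA and 3.82 ± 0.70 on PEDOT (SD, n = 3, exact permutation p = 0.8, two-sided), per kb of exon. SLN to ATP2A2 was 0.00996 ± 0.00700 and 0.0163 ± 0.00675 (exact permutation p = 0.4), higher on PEDOT in 3 of 3 pairs. ATP2A2 to RYR2, pump against release channel, was 3.29 ± 0.48 and 2.95 ± 0.04 (exact permutation p = 0.2), with PVA replicate 2 at 3.85 and the other sums at 2.91 to 3.07. TRDN to RYR2 was 0.400 ± 0.035 and 0.367 ± 0.101 (exact p = 0.6), and CASQ2 to RYR2 0.0109 ± 0.0087 and 0.0119 ± 0.0053 (exact p = 0.8). All 5 had an adjusted p of 0.8, and 3 sums against 3 cannot give an exact p below 0.1. Sign-flip tests over the 3 pairs, which cannot go below 0.25, gave exact p = 0.5, 0.25, 0.5, 0.5 and 0.75 in the same order.

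**Figure D3:**
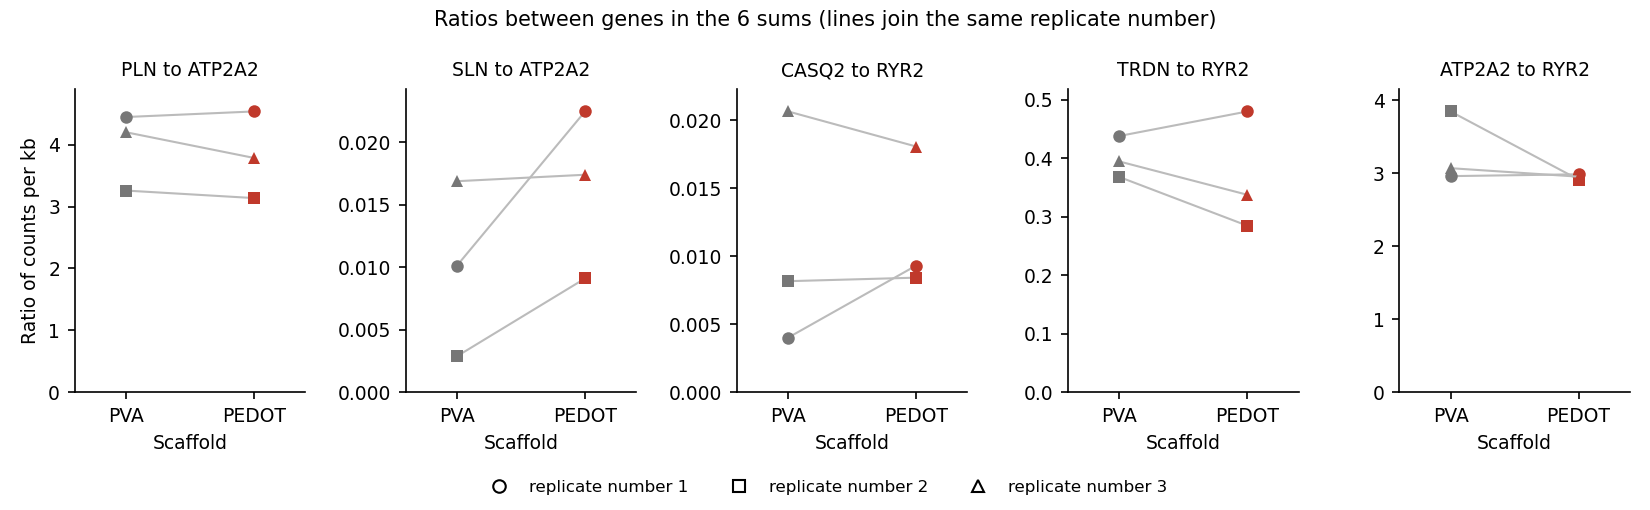
The 5 ratios of levels per kb in the 6 sums, with a grey line joining sums of equal replicate number. The 3 PEDOT sums of ATP2A2 to RYR2 lie within 2.91 to 2.98. PVA replicate 2 stands farthest above them at 3.85, and PVA replicate 3 lies just above them at 3.07.

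Among the genes for proteins of the store and its junctions, none passed the scaffold test. CASQ2 (chr1:115700007-115768781, minus strand, 12 merged exons), cardiac calsequestrin, the main calcium buffer of the store, stood at 0.963, 2.31 and 6.42 CPM in replicates 1, 2 and 3 on PVA and at 2.49, 2.95 and 6.36 CPM on PEDOT. Replicate 3 was the highest on each scaffold, and the pairs differed by 1.33, 0.35 and -0.01 on the log2 scale. The log2 fold change was 0.28 ± 0.68 (SE) and, with the block, 0.47 ± 0.21 (unadjusted p = 0.0427, edgeR adjusted p = 0.582).

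TRDN (chr6:123216339-123637093, minus strand, 43 merged exons) encodes triadin, which anchors calsequestrin at the release channel. It reached 371, 367 and 432 CPM in replicates 1, 2 and 3 on PVA and 452, 352 and 419 CPM on PEDOT, with overlapping scaffolds and a log2 fold change of 0.06 ± 0.13 (SE). HRC (chr19:49151198-49155396, minus strand, 5 merged exons) encodes the histidine-rich calcium binding protein, which binds calcium in the store and interacts with triadin and the pump. On PVA its level was 85.7, 148 and 137 CPM and for PEDOT 107, 151 and 130.1 CPM, with a log2 fold change of 0.07 ± 0.22 (SE). Replicate 1 was lowest on both scaffolds.

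JPH2 (chr20:44111695-44187578, minus strand, 7 merged exons) encodes junctophilin 2, which ties the store to the T-tubule membrane. It stood at 255, 294 and 283 CPM in replicates 1, 2 and 3 on PVA and at 306, 326 and 287 CPM on PEDOT. PEDOT was higher in each pair and the lowest PEDOT sum lay between the PVA sums. JPH2 had a log2 fold change of 0.14 ± 0.09 (SE, 95% interval -0.08 to 0.37), and 0.14 ± 0.07 with the block (unadjusted p = 0.0527, edgeR adjusted p = 0.611). ASPH (chr8:61500556-61714640, minus strand, 37 merged exons) gives rise to junctin, which binds triadin and the release channel, and to an aspartyl hydroxylase, and counts per gene name cannot separate them. ASPH had the narrowest range of the 10, with 394, 385 and 363 CPM in the PVA sums and 405, 411 and 383 CPM in those of PEDOT, and a log2 fold change of 0.07 ± 0.09 (SE). Its exons overlap 1090 bases of CLVS1 exons on the opposite strand, which strand-specific counting keeps apart.

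The second labelled factor is the replicate number, and here 6 of the 10 genes differed. In edgeR's test of the replicate number with the scaffold in the model, RYR2, ATP2A2, SLN, CASQ2, HRC and ITPR2 had an adjusted p under 0.05, where 31.8% of all genes tested did. The labels give the numbers as biological replicates and say nothing more of them. Replicate number accounted for 95.9% of the variance of log2 CPM for ITPR2, 91.4% for ATP2A2, 88.9% for HRC, 81.4% for CASQ2, 69.0% for RYR2 and 57.5% for SLN, beside a median of 70.3% over all genes, whose median share for the scaffold was 6.05%. Among the genes not called, replicate number accounted for 71.3% of the variance for PLN, 60.4% for TRDN, 59.8% for ASPH and 35.7% for JPH2. The share therefore did not separate called from uncalled genes. JPH2 was the gene of the 10 with the largest scaffold share, at 43.9%.

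**Figure D4:**
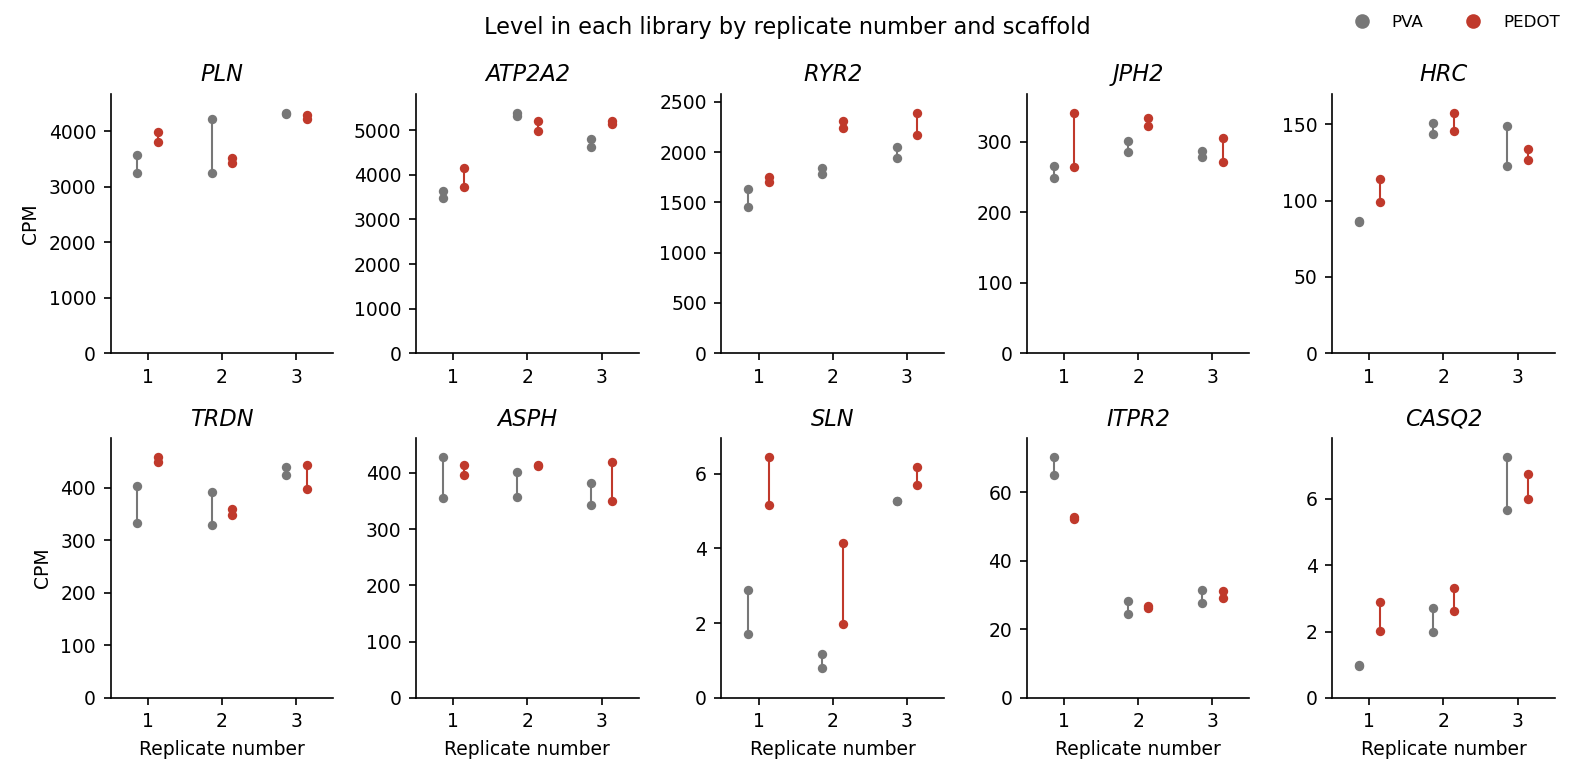
CPM of each gene in each library (points) by replicate number, with a line joining the 2 technical libraries of a replicate and colour for the scaffold; each axis starts at 0. RYR2, ATP2A2 and HRC are lowest in replicate number 1, ITPR2 is highest there, and CASQ2 is highest in replicate number 3.

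RYR2, ATP2A2 and HRC shared a pattern, with all 4 libraries of replicate number 1 below all 8 others. The share of all genes with such a separation was not counted, so the pattern is not shown to be particular to these genes. RYR2 held 1457 to 1750.0 CPM in the 4 and 1779 to 2390.4 CPM in the 8. ATP2A2 held 3487 to 4145 and 4631 to 5394 CPM, and HRC 85.8 to 113.9 and 122.7 to 157.7 CPM. From number 1 to number 2 the fitted log2 difference was 0.31 ± 0.09 for RYR2, 0.48 ± 0.10 for ATP2A2 and 0.63 ± 0.09 for HRC (SE), and from 1 to 3 it was 0.38 ± 0.09, 0.40 ± 0.10 and 0.47 ± 0.09. The edgeR adjusted p-values were 0.0106, 0.00390 and 0.000296. Without PEDOT replicate 1 the RYR2 call was lost, at an adjusted p of 0.0614, while ATP2A2 and HRC passed under each of the 25 alternative settings. No motif searched was common to the windows printed above for RYR2, ATP2A2 and HRC, although RYR2 and HRC both held an M-CAT. HRC also shared its CCAAT box with PLN, which did not share the pattern. The second ATP2A2 window, not printed, held the GC box found for RYR2 and the CCAAT box found for HRC. The part of these motifs in the pattern was not tested.

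The cardiomyocyte marker sum moved with these 3 genes. It was 52114 and 59821 CPM in number 1 (PVA, then PEDOT) and 68315 to 80304 CPM in the other sums. Of the 6 markers, 5 had their lowest mean in number 1, and TNNT2 had it in number 3 (370, 498 and 338 CPM in numbers 1, 2 and 3). TTN weighs most in that marker sum. Over the 6 markers, the fitted log2 difference from number 1 to 2 ran from 0.35 (TTN) to 0.93 (TNNC1). Set against the marker sum, the log2 differences from number 1 to numbers 2 and 3 became -0.09 and 0.00 for RYR2, 0.08 and 0.02 for ATP2A2, and 0.23 and 0.09 for HRC. The part of cardiomyocyte content in the pattern was not tested. Mitochondrial genes took 4.10 and 4.01% of counts in number 1 and 4.95 to 5.21% in the others, and their part in the result was not tested.

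ITPR2 ran the other way, with 52.1 to 70.2 CPM in the 4 libraries of replicate number 1 and 24.4 to 31.4 CPM in the 8 others. Its log2 difference was -1.19 ± 0.11 from number 1 to 2 and -1.01 ± 0.10 from 1 to 3 (SE, edgeR adjusted p = 1.18e-06). Against the cardiomyocyte marker sum the differences were -1.58 and -1.38. ITPR2 is also expressed outside muscle, and lists for other cells were read beside it. Fibroblast markers summed to 2795 and 5174 CPM in number 1, 620 and 642 CPM in number 2, and 2482 and 2758 CPM in number 3 (PVA, then PEDOT). Smooth muscle and pericyte markers (MYH11, CNN1, RGS5, PDGFRB and ACTG2) summed to 758 and 665 CPM, 386 and 310.0 CPM, and 589 and 447 CPM. Epicardial markers (WT1, TBX18, UPK3B, MSLN and ALDH1A2) summed to 75.3 and 81.2 CPM, 32.6 and 35.2 CPM, and 52.6 and 53.0 CPM. All 3 summed levels were highest in number 1 on PVA and PEDOT and lowest in number 2. Single markers differed from the sums: the epicardial WT1 averaged 62.3, 29.3 and 32.9 CPM in numbers 1, 2 and 3, beside 59.9, 26.3 and 29.7 CPM for ITPR2, while TBX18 averaged 14.4, 2.66 and 19.0 CPM. Among the fibroblast markers, POSTN averaged 14.7, 43.3 and 17.8 CPM in numbers 1, 2 and 3, and PDGFRA 12.7, 10.9 and 25.2 CPM. DCN, LUM, COL1A1 and COL3A1 had their highest mean in number 1. WT1, TBX18, POSTN and PDGFRA were singled out after their values had been seen. The part of these cells in the ITPR2 values was not tested.

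CASQ2 was highest in replicate number 3, and SLN was lowest in number 2. The 4 libraries of number 3 held 5.66 to 7.25 CPM of CASQ2 and the 8 others 0.949 to 3.32 CPM, a log2 difference of 1.94 ± 0.26 from number 1 to 3 and of 1.31 ± 0.25 from 2 to 3 (SE, edgeR adjusted p = 9.41e-05). SLN rose by 1.61 ± 0.27 from number 2 to 3 and fell by 1.03 from 1 to 2 (edgeR adjusted p = 0.00141), and from 1 to 3 it differed by 0.58 ± 0.26. Its libraries held 5.26 to 6.18 CPM in number 3 and 1.70 to 6.44 CPM in number 1, so the numbers overlapped. Against the cardiomyocyte marker sum, CASQ2 still differed by 1.66 between numbers 1 and 3 and SLN by 1.69 between 2 and 3. The SLN call was lost without PVA replicate 2 (adjusted p = 0.0563), whereas CASQ2 passed under each of its 24 alternative settings. Ventricular markers (MYL2, IRX4, HEY2 and MYH7) summed to 738 and 2031 CPM in number 1, 679 and 998 CPM in number 2, and 1358 and 1641 CPM in number 3. NPPA, a marker of atrial muscle picked out after its values had been seen, was highest in number 3 on each scaffold, at 159, 558 and 650.3 CPM in numbers 1, 2 and 3 on PVA and 205, 434 and 483 CPM on PEDOT. The part of either in the CASQ2 and SLN values was not tested.

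PLN, TRDN, JPH2 and ASPH did not pass the test of the replicate number. The PLN mean was 3657, 3642 and 4287 CPM in numbers 1, 2 and 3 (edgeR adjusted p = 0.127), and that of TRDN 411, 359 and 426 CPM (0.107). Both passed under some settings: without PEDOT replicate 1 (adjusted p = 0.0180 and 0.0350) and without technical library 3 of PVA replicate 2 (0.0272 and 0.0312), and TRDN also without PVA replicate 1 (0.00901). JPH2 averaged 280.1, 310 and 285 CPM (0.334) and ASPH 399, 398 and 373 CPM (0.512). Although the cardiomyocyte marker sum was lowest in number 1, the PLN mean was not, and against that sum its log2 differences were -0.41 from number 1 to 2 and -0.15 from 1 to 3. For TRDN the same differences were -0.60 and -0.33.

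Likeness across the 12 libraries was measured as the mean absolute difference of log2 CPM after each gene was centred on its own mean, among 11787 genes that averaged at least 5 CPM. ATP2A2 was most like PRDX2 (0.036), HADHB (0.041) and RRAGD (0.041), and HRC was its nearest gene among the 10 (0.096). RYR2 was most like MAP4K3-DT (0.057), LGI4 (0.061) and ABCB4 (0.074), with ATP2A2 the nearest of the 10 at 0.12. The nearest genes to PLN were PDHX (0.041), DCUN1D1 (0.046) and ATAD1 (0.051), and TRDN was the nearest of the 10 (0.082). No gene came as close to SLN, whose nearest were PTGIS (0.29), PODN (0.34) and NDUFA4L2 (0.36), while SLN itself deviated from its own mean by 0.84 on average. The 12 libraries share 3 replicate numbers and 2 technical libraries per replicate, so these are descriptions of 6 samples.

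RYR2, ATP2A2, PLN, JPH2 and ITPR2 led their gene families in all 6 sums, and CASQ2 did not. CASQ2, the cardiac calsequestrin, took only 1.10 to 4.59% of the calsequestrin transcripts per length, and CASQ1, best known as the skeletal muscle form, took 95.4 to 98.9%. CASQ1 stood at 31.2, 32.3 and 51.8 CPM per kb in replicates 1, 2 and 3 on PVA and at 43.2, 31.6 and 47.8 on PEDOT, 20.8 to 89.5 times the CASQ2 level. The ratio of CASQ1 to CASQ2 was lowest in replicate 3 of each scaffold, at 22.4 on PVA and 20.8 on PEDOT, and highest in replicate 1, at 89.5 and 48.1. CASQ1 passed the test of the replicate number (edgeR adjusted p = 0.00121) and not that of the scaffold (log2 fold change 0.09 ± 0.24, SE). Skeletal muscle markers (MYOD1, MYOG, MYH3 and CKM) summed to 207 to 438 CPM with none at 0. Nearly all of that was CKM (204 to 434 CPM), the muscle creatine kinase, which heart muscle expresses too, and MYOD1, MYOG and MYH3 each lay between 0.300 and 1.85 CPM. Their part in the CASQ1 level was not tested.

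**Figure D5:**
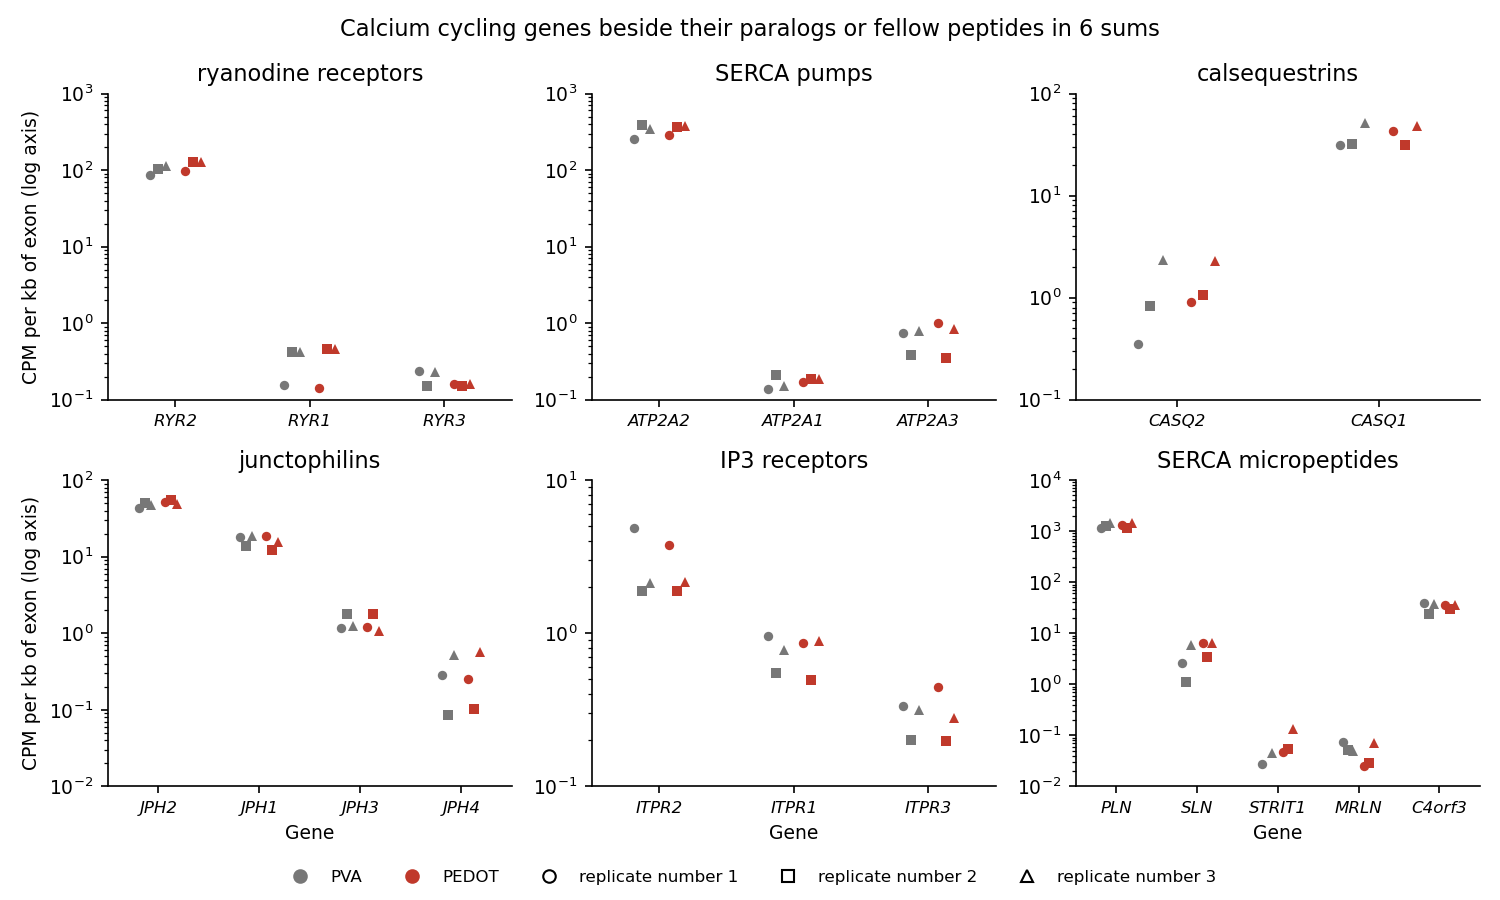
CPM per kb of exon on log axes for the genes of 6 families in the 6 sums, with colour for the scaffold and marker shape for the replicate number; values of 0 are not drawn. RYR2, ATP2A2 and PLN stand far above the rest of their families, and CASQ1 stands above CASQ2 in each of the 6 sums.

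JPH2 made up 68.5 to 79.7% of the junctophilin transcripts per length and JPH1, the skeletal muscle form, 17.5 to 29.1%. Among the small proteins that bind SERCA, PLN took 96.4 to 98.1% and SLN 0.0866 to 0.480%. C4orf3, which encodes another-regulin, took 1.79 to 3.33%, a mean level of 33.4 CPM per kb against 4.32 for SLN. STRIT1 (DWORF), MRLN (myoregulin) and SMIM6 (endoregulin) had too few counts to be tested. Reads that match several genes were left out of the counts, so near-identical stretches between paralogs are counted for neither.

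Genes around this machinery were read from 5 lists of 55 genes, of which 52 could be tested. None passed the scaffold test with or without the block, at a median log2 fold change of -0.01 with 26 estimates above and 26 below 0, while 8 of the 52 had an unadjusted p under 0.05 with the block, beside 8.32% of all genes. The replicate number test called 26 of the 52, which is 50.0% beside the 31.8% of all genes. By list, it called 8 of 10 paralogs, 5 of 9 pump regulators, 4 of 14 release channel regulators, 5 of 12 genes of the store lumen and of store-operated entry, and 4 of 7 T-tubule genes. The list of the store lumen and entry had 2 of 12 scaffold estimates above 0, beside 48.1% of all genes, and a median of -0.12. Its 2 genes of smallest p were CALR, the calcium-binding chaperone calreticulin, at -0.19 ± 0.10 (SE), and HSP90B1, a chaperone of the same lumen, at -0.20 ± 0.14. Neither passed (edgeR adjusted p = 1.00).

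In the T-tubule list, TCAP, which encodes the titin cap telethonin, had the largest estimate at 0.51 ± 0.26 (SE), and 0.56 ± 0.14 with the block (edgeR adjusted p = 0.154). Its pair differences were 1.22, 0.29 and 0.21. CACNA1C, the L-type channel whose current opens the ryanodine receptor, was at 0.13 ± 0.10. Among the paralogs RYR3 was at -0.38 ± 0.21 and JPH1 at -0.15 ± 0.18, and among the pump regulators SRI (sorcin) at -0.14 ± 0.11 and S100A1 at -0.47 ± 0.40. S100A1 had only 10 to 29 counts in a sum, and its pair differences were -0.20, -0.16 and -1.15. For the channel regulators FKBP1A, the small binding protein FKBP12, was at -0.13 ± 0.09 and CALM2, which encodes calmodulin, at -0.09 ± 0.10. These 10 genes were the 2 of smallest p in their lists, and none was called.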

How the data were processed

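The values deposited are raw counts, 1 column for each of 12 libraries, with no scaling by the authors. They were made by featureCounts 2.0.1 on GENCODE release 33, counting pairs on the reverse strand and leaving out reads that match several places, per the file headers, with STAR and hg38 named in the submitters' processing notes. The aligner's version is not given in the sources used here.

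Technical libraries were summed per replicate (44.5 to 57.5 M counts). Genes were kept by filterByExpr (minimum count 10, total 15), scaled by TMM and tested with edgeR 4.0.16 in R 4.3.3 (quasi-likelihood, Benjamini-Hochberg over all 21298 genes, threshold 0.05) for the scaffold alone, the scaffold with the replicate number as a block, and the replicate number. DESeq2 1.42.0, other scalings and filters, and left-out libraries were alternatives. The scripts were tested on simulated data. Ratios used exact permutation over 20 assignments, adjusted over the 5 ratios. Same-numbered sums deviated together (r = 0.68, 0.70 and 0.50 across genes), which met the rule for treating the numbers as pairs, and no label states a shared culture.

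The 10 genes and the lists were chosen with earlier results of these data known. The text names all 10, the 2 list genes of smallest p in each of 5 lists, and the 3 genes most like RYR2, ATP2A2, PLN and SLN. Family shares (CASQ1 and C4orf3 included) and levels against the cardiomyocyte marker sum were added after the levels had been seen. The sums of 2 further marker lists are not reported here.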

Additional observations from a re-analysis of the deposited data

Results flagged for a closer look

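ASPH stood apart in 1 library. PEDOT replicate 3, technical library 3, held 349 CPM, while the other 5 PEDOT libraries held 396 to 419 CPM. The gap to the nearest library was 0.672 of the whole range, above Dixon's 95% critical value for 6 samples. That value assumes independent samples, whereas the 6 libraries are technical pairs from 3 replicates, so it serves only as a guide here. Of 20 groups tested (10 genes on 2 scaffolds), this was the only 1 past that value, and chance alone passes about 1 in 20. The other technical library of the same replicate held 419 CPM, and the 6 PVA libraries ranged from 342 to 427 CPM, so the value lies inside the range of PVA.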

How the results depend on the processing

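The count of genes called between scaffolds was 0 under each of 41 alternatives but 1. With the replicate block and pair 3 left out it was 1 (SLN), beside 1.31% of all genes tested. Block fits with a second choice changed called 1 with DESeq2 (SLN), beside 0.451% of all genes. They called 2 over every gene with a count (RYR2 and SLN), beside 0.980% of all genes. The replicate block changed no other call among the 10 genes. With the replicate block over all pairs, the number of calls among all genes was 57 against 0 without it, and it ran from 1 to 389 over the block fits with other settings. Estimates close to 0 changed sign: for PLN to -0.016 with the higher-numbered technical libraries alone, and with the replicate block and pair 1 left out to -0.078 for PLN, -0.045 for TRDN, -0.013 for HRC and 0.025 for ITPR2. Leaving out 1 replicate at a time, the scaffold estimates ran from -0.10 to 0.20 for ATP2A2, -0.074 to 0.090 for PLN, -0.26 to 1.26 for CASQ2, -0.13 to 0.22 for HRC, -0.54 to 0.38 for ITPR2, -0.015 to 0.15 for TRDN, 0.37 to 1.54 for SLN (without PVA replicates 2 and 3) and 0.13 to 0.34 for RYR2 (without PVA and PEDOT replicates 1). PLN to ATP2A2, as a log2 difference of -0.06, became 0.022 with the lower-numbered technical libraries and ran from -0.19 to 0.075 without 1 replicate. CASQ2 to RYR2 ran from -0.21 to 0.97 and TRDN to RYR2 from -0.36 to 0.012. For the replicate number, 4 to 8 genes were called over 25 alternatives. Where only genes averaging at least 5 CPM were tested, which leaves out SLN and CASQ2, 4 of 8 were called beside 40.5% of all genes tested. With every gene with a count, 8 of 10 were called beside 19.4% of all genes. The lower-numbered technical libraries (26.6% of all genes) also gave 8, as did leaving out technical library 3 of PVA replicate 2 (30.0%). PLN and TRDN were the genes added in these 3 settings. The higher-numbered technical libraries alone lost the SLN call (adjusted p = 0.0649). The cause was not tested. Of the alternative values computed, 508 were classed as the same, 22 changed sign, 10 gained and 3 lost a call, and 1 count of calls moved. For single genes and ratios, the same means an unchanged direction and side of the threshold. Small shifts in the median or in a count of calls, such as 4 or 8 genes instead of 6, were classed as the same too. The gained calls leave out those of the block fits with a second choice changed. Leaving out single technical libraries was chosen after seeing the data. SLN and CASQ2 are limited by counts of 16 to 190 per library.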
